A study of Homo sapiens with 63 samples.

Results

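The subject is 31 genes that p53 is known to activate, the p53 target genes, followed by name through 63 RNA-seq libraries of HEK293T cells. They were taken from a written list of gene names, chosen with earlier results of these data known. They are 31 of the 58336 genes in the deposited table. Counts were high enough to test 30 of the 31 and 19352 genes in all. HEK293T is an established human embryonic kidney line that carries the SV40 large T antigen, a viral protein that binds p53 and keeps it from DNA. Every group, DMSO included, was of HEK293T cells made to express Halo, a protein tag that bonds to a small ligand. The 6 drug arms were the ibufenac probe, the ibuprofen probe, photocaged ibufenac, photocaged ibuprofen, the ibufenac bolus and the ibuprofen bolus, and the vehicle DMSO was the control arm. Each of the 7 arms was sampled at 6, 12 and 18 h with 3 libraries, which makes 21 groups. Ibufenac and ibuprofen are related arylacetic and arylpropionic acids, and ibufenac lacks the α-methyl group of ibuprofen. According to the labels, Halo-binding precursors of the acyl glucuronide of each drug were given at 10 µM for 2 h, and after washes the cells were lit with 365 nm light of 5 mW/cm2 during 3 min. The labels do not say how the probe and photocaged forms differ, which libraries were lit, what dose the bolus was, or whether replicates are separate cultures, so p-values may measure technical spread only.

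The libraries limit what can be read from them. Total counts ran from 12.1 to 38.4 M per library with a median of 19.6 M. The 10 markers of HEK293 cells summed to 265 to 421 FPKM (fragments scaled to transcript length and library size) in every library, although PAX2, a kidney developmental factor among them, was near 0 (median 0.0468 FPKM). Most of that sum came from VIM alone (median 222.7 FPKM). Markers of hepatocytes summed to at most 1.95 FPKM, those of blood cells to 0.843 and those of fibroblasts to 3.37. The large T antigen transcript and p53 protein were not analysed here. Time, and everything in culture that changes with it, was the same variable in all arms, so cell density, medium age and time since treatment cannot be told apart. The sample numbers also run in blocks by time, and by arm within each time. Any effect of sample order therefore cannot be told apart from time or arm.

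p53 is a transcription factor that is held low by MDM2, a ubiquitin ligase that is itself a p53 target, so that the pair forms a feedback loop. When DNA damage or other stress frees p53 from MDM2, it binds a paired motif near its targets, and these genes then halt the cell cycle, repair DNA, adjust metabolism or start cell death. In cells with large T antigen p53 protein accumulates in complex with the viral protein, and the response of its targets is known to be blunted. Other stress factors can also act on some of these genes; ATF4, the effector of the integrated stress response, is a known activator of PMAIP1, BBC3 and TNFRSF10B through itself or its partner CHOP.

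The p53 motif was looked for at the start sites of the members because p53 acts through it, and the matches are shown as they stand in the sequence. RefSeq start-site windows of 250 bases before to 50 after the start, on GRCh38.p14, were at hand for 25 of the 31 members. The motif is a pair of 10-base elements, the p53 consensus decamer repeated. The decamer is its own reverse complement, so both strands give the same matches. A pair with at most 1 mismatch in each element and a spacer of at most 1 base was found in DDB2 and MDM2, 2 of 25 members (8%), against 0.41% of the 27305 genes with a window. An exact single element was found in 6 of 25 (24%), against 8.06% of those genes. Those were DDB2, SESN1, FAS, PLK2, AEN and FDXR. Windows overlap where a gene has several starts, DDB2 holds a further overlapping pair, and known p53 sites often lie in introns outside these windows. In the sequences below capitals mark the elements (both of the pair in DDB2 and MDM2, the exact one in the others), read 5′ to 3′ on the gene's strand.
DDB2 (chr11:47214975-47215003, plus strand): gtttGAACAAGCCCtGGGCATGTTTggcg
MDM2 (chr12:68808919-68808946, plus strand): agctGGTCAAGTTCAGACACGTTCcgaa
PLK2 (chr5:58460199-58460228, minus strand): tggcgggacaAGACTTGCTTcccggccacg
SESN1 (chr6:109009018-109009047, minus strand): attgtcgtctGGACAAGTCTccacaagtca
FAS (chr10:88991299-88991328, plus strand): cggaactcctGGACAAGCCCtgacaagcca
AEN (chr15:88621296-88621325, plus strand): agtcggagccGGGCTTGCCCgggcatgtgg
FDXR (chr17:74872986-74873015, minus strand): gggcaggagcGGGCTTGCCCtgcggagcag

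Per unit of length the members spanned a wide range of abundance. MDM2 was the most abundant, with a median of 225.3 FPKM over the 63 libraries (105.3 to 429.0). AEN, a nuclease that promotes apoptosis, followed at a median of 108.7 FPKM, then CCNG1 (cyclin G1) at 97.77 and CDKN1A (p21, the inhibitor of cyclin-dependent kinases) at 73.46. The middle of the order held BTG2, a growth inhibitor, at a median of 20.92 FPKM and FDXR, the mitochondrial ferredoxin reductase, at 18.62, and their ranges overlapped (12.15 to 33.46 and 6.148 to 35.99). PLK2, a polo-like kinase, had 4.15 FPKM and EDA2R, a receptor of the tumour necrosis factor receptor family, had 2.823, the lowest median among the tested members. TNFRSF10A, a receptor for the death ligand TRAIL, was listed at 0 in 62 of 63 libraries and at 0.1026 FPKM in the other, with at most 2 counts, and it was not tested. Its relative TNFRSF10B, the other TRAIL death receptor described here, had a median of 48.76 FPKM. Neighbouring ranks in this order mostly had overlapping ranges, so the order of close neighbours carries little weight.

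CDKN1A (ENSG00000124762) lies at chr6:36676460-36687339 on the plus strand of GRCh38, MDM2 at chr12:68808176-68850686 on the plus strand, FAS at chr10:88990582-89015785 on the plus strand and TP53I3 at chr2:24077433-24085861 on the minus strand, as GENCODE 29 places the whole genes. A few members share their locus with another transcript. PIDD1, a scaffold of a caspase-activating complex, lies opposite the ribosomal protein gene RPLP2, and their medians were 6.753 and 418.9 FPKM. FAS overlaps ACTA2 (19.7 FPKM), XPC overlaps LSM3 (23.0), POLH overlaps GTPBP2 (21.4) and TP53INP1 overlaps NDUFAF6 (16.1), each on the other strand. MDM2 holds a processed pseudogene on its own strand at 30.2 FPKM. The kit kept strand, but the counting strand is not given in the sources used here, so counts of these members, PIDD1 above all, are uncertain.

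**Figure D1:**
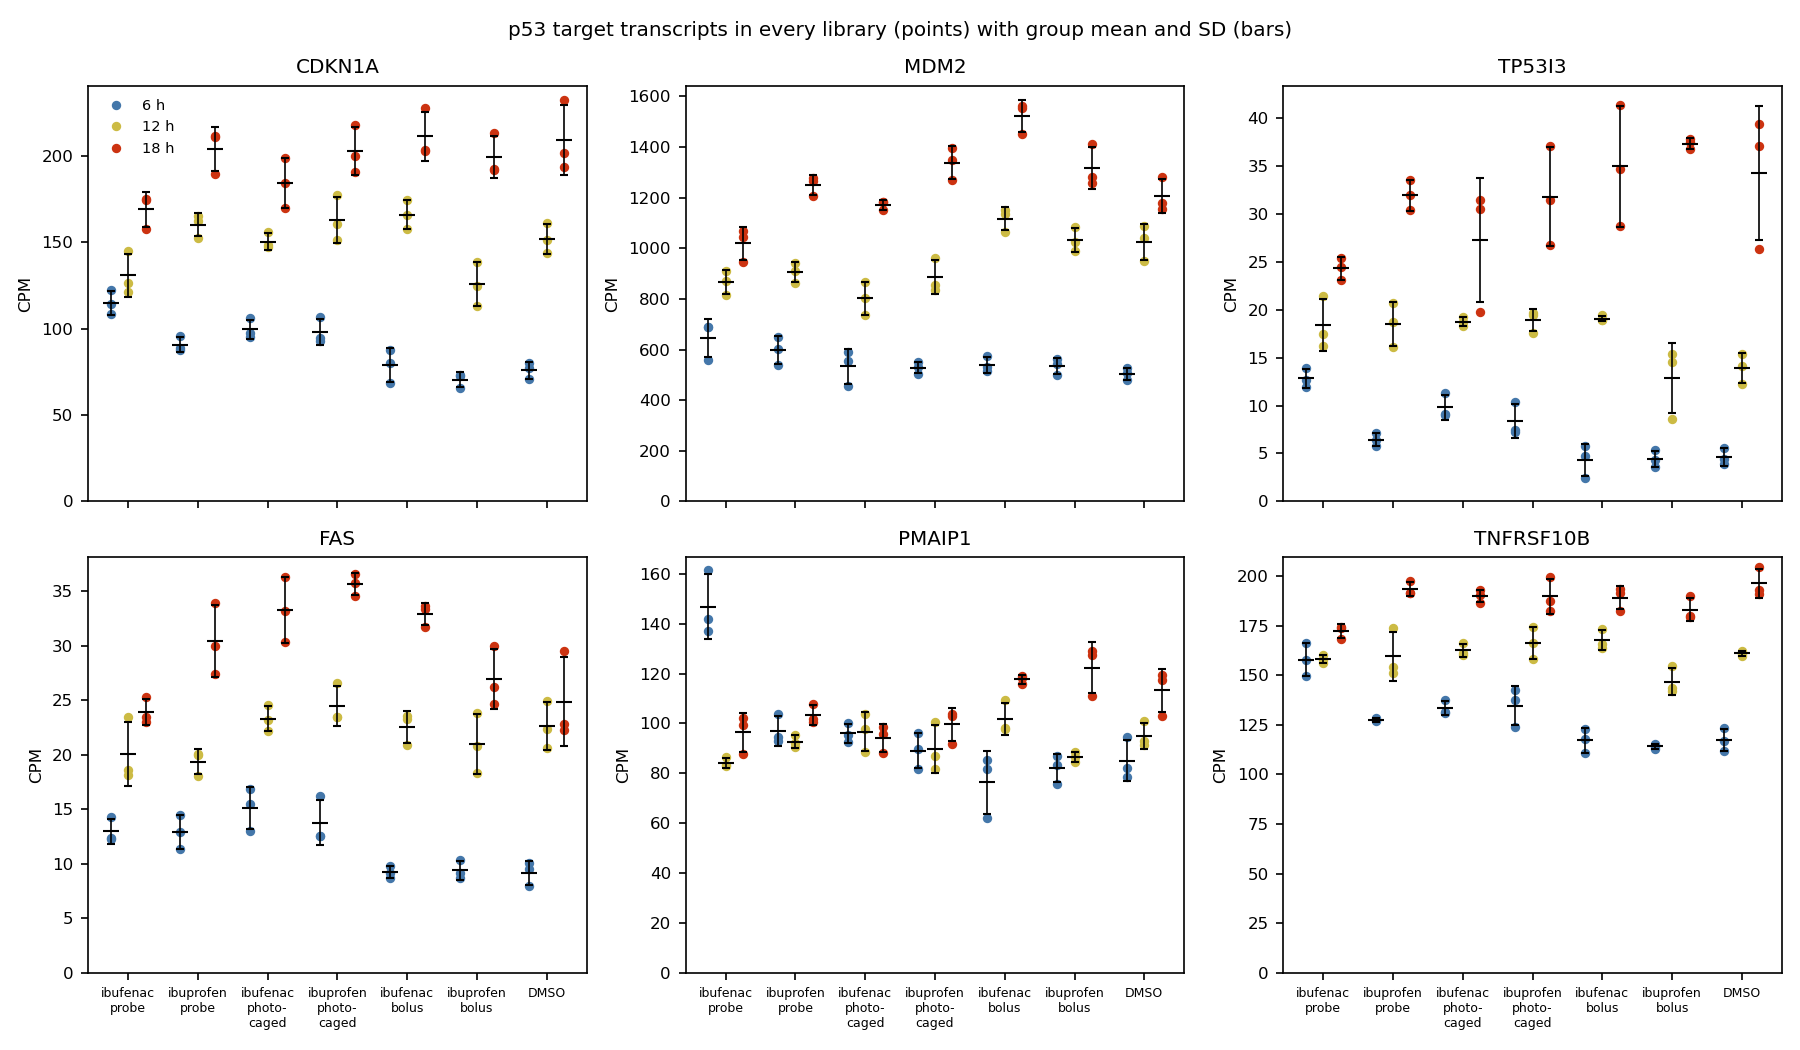
CPM (counts scaled to library size, linear axis from 0) of CDKN1A, MDM2, TP53I3, FAS, PMAIP1 and TNFRSF10B, with the 6 drug arms left of DMSO and 6, 12 and 18 h side by side in each. Points are the 3 libraries of a group and bars are the mean and SD. CDKN1A, MDM2, TP53I3 and FAS climbed with time in all 7 arms, and PMAIP1 stood highest in the ibufenac probe at 6 h (142, 162 and 137 CPM).

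The members climbed with time, also in cells that got no drug. In DMSO all 30 tested members were higher at 18 h than at 6 h and passed the test (edgeR quasi-likelihood test, Benjamini-Hochberg adjusted p under 0.05 over all tested genes). Of all tested genes 17.5% passed in either direction and 7.42% were higher. The median change of the members was 0.88 on the log2 scale, a fold of 1.838, against a median of 0.01 over all tested genes. For each of the 30 members all 3 DMSO libraries at 18 h lay above all 3 at 6 h, which held for 14.1% of all tested genes. In bulk RNA, more cells that express a gene and more RNA per cell cannot be told apart. By 12 h, 20 of 30 members had passed as higher and none as lower, where 3.82% of all genes passed in either direction, and the median member change was 0.48. The 10 that had not passed at 12 h were FDXR, PHLDA3, PLK3, BAX, TRIAP1, GADD45A, AEN, PMAIP1, PIDD1 and BBC3.

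Genes of cell cycle arrest and p53 feedback rose throughout, 9 of 9 tested members at 18 h. CDKN1A had 77.2, 80.1 and 70.6 CPM at 6 h, 151, 161 and 143 at 12 h and 201, 232 and 193 at 18 h in the DMSO libraries. The times did not overlap, and the change at 18 h against 6 h was 1.46 ± 0.09, adjusted p = 2.9e-18. MDM2 had 526, 506 and 479 CPM at 6 h, 949.5, 1088 and 1039.9 at 12 h and 1157, 1282 and 1178 at 18 h. It had risen by 18 h in every library, with no overlap between 6 h and the later times, and the change was 1.26 ± 0.08, adjusted p = 2.25e-17. BTG2, which slows growth by speeding mRNA decay, had 38.5, 35.2 and 38.6 CPM at 6 h, 53.4, 55.5 and 57.1 at 12 h and 71.8, 76.4 and 57.0 at 18 h and rose by 0.87 ± 0.10, adjusted p = 4.96e-09. GADD45A, a stress-induced gene of arrest and repair, had 29.8, 33.3 and 30.7 CPM at 6 h, 35.6, 35.7 and 37.1 at 12 h and 46.8, 47.6 and 42.9 at 18 h, a smaller change of 0.55 ± 0.13, adjusted p = 0.00178. PLK3, a stress-responsive polo-like kinase, had 6.43, 7.47 and 5.85 CPM at 6 h, 9.67, 8.85 and 7.24 at 12 h and 12.9, 12.5 and 12.3 at 18 h, a change of 0.93 ± 0.18, adjusted p = 0.000163. Of the others in this group, CCNG1, PPM1D (a phosphatase that shuts off damage signalling), PLK2 and ZMAT3 (a p53-induced RNA-binding protein) changed by 0.54, 0.36, 0.62 and 0.88. The PLK2 call ended without any 1 of DMSO 6 h replicates 1 and 2 and DMSO 18 h replicates 1 and 2 (adjusted p 0.059 to 0.137).

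Death receptors and other genes of cell death rose in 13 of 13 tested members, and they included the member with the largest change. TP53I3, a quinone oxidoreductase linked to oxidative stress in p53-driven death, had 3.86, 5.61 and 4.43 CPM at 6 h, 12.3, 15.3 and 14.1 at 12 h and 37.1, 39.4 and 26.3 at 18 h in DMSO. Its 18 h libraries lay far above its 6 h libraries, and the change was 2.88 ± 0.20, adjusted p = 1.1e-15. FAS, the receptor of Fas ligand, had 9.55, 7.94 and 10.1 CPM at 6 h, 22.3, 25.0 and 20.6 at 12 h and 22.2, 29.5 and 22.8 at 18 h. Most of its change of 1.44 ± 0.12, adjusted p = 9.57e-13 had come by 12 h, where it was 1.30 ± 0.12, and the 12 h and 18 h libraries overlapped. TP53INP1, a stress protein of autophagy and death, had 32.2, 28.2 and 27.3 CPM at 6 h, 47.4, 58.9 and 54.3 at 12 h and 67.4, 70.1 and 56.6 at 18 h and changed by 1.15 ± 0.12, adjusted p = 6.84e-10. TRIAP1, an inhibitor of apoptosis at mitochondria, had 46.0, 48.0 and 44.4 CPM at 6 h, 51.0, 53.6 and 60.5 at 12 h and 54.5, 60.8 and 64.7 at 18 h and changed by 0.38 ± 0.10, adjusted p = 0.00341. EDA2R rose by 1.42, BAX, which forms pores in the mitochondrial outer membrane, by 1.11, TNFRSF10B by 0.74 and PMAIP1 (NOXA, a BH3-only death protein) by 0.41. APAF1, the apoptosome scaffold, rose by 0.95, PHLDA3, an inhibitor of AKT, by 1.07 and AEN by 0.52. The calls of PIDD1 (1.18 ± 0.40, adjusted p = 0.0305) and BBC3 (PUMA, another BH3-only protein, 1.02 ± 0.33, adjusted p = 0.0227) were the least firm. The PIDD1 call ended without DMSO 6 h replicate 1 or DMSO 18 h replicate 1 or 2, and the BBC3 call without DMSO 6 h replicate 1 or DMSO 18 h replicate 2 (adjusted p 0.0638 to 0.154).

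The 4 repair genes and the 4 genes of metabolism and mitochondria also rose in DMSO. DDB2, a sensor of ultraviolet damage in nucleotide excision repair, had 52.8, 65.1 and 52.0 CPM at 6 h, 84.4, 82.8 and 80.5 at 12 h and 102, 109 and 100.01 at 18 h, and its change was 0.87 ± 0.07, adjusted p = 2.07e-13. XPC, the other damage sensor of that pathway, had 69.3, 74.4 and 83.4 CPM at 6 h, 94.9, 98.9 and 102 at 12 h and 122, 121 and 123 at 18 h, and its change was 0.68 ± 0.07, adjusted p = 6.07e-11. Neither gene's 6 h libraries overlapped its 18 h libraries. POLH, a translesion polymerase, and RRM2B, the p53-induced ribonucleotide reductase subunit, changed by 0.77 and 0.73. SESN1, a sestrin that restrains mTORC1, had 42.1, 40.9 and 35.5 CPM at 6 h, 52.8, 55.7 and 57.7 at 12 h and 51.2, 66.0 and 76.5 at 18 h and changed by 0.71 ± 0.09, adjusted p = 8.1e-08, with a wide spread at 18 h. SPATA18, a gene of mitochondrial quality control, had 9.98, 11.6 and 7.58 CPM at 6 h, 18.5, 21.6 and 23.1 at 12 h and 23.8, 33.7 and 28.7 at 18 h and changed by 1.57 ± 0.14, adjusted p = 9.57e-13. FDXR changed by 1.74 ± 0.25 and TIGAR, which lowers glycolytic flux, by 0.53 ± 0.12.

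Lists of genes around the members also moved with time in DMSO, at 18 h against 6 h. Of 45 tested further p53 targets outside the member list, 30 passed as higher and none as lower, with a median of 0.56. GDF15, a secreted stress signal among them, had 30, 79 and 65 counts in DMSO at 6 h and 220, 235 and 155 at 18 h (2.19 ± 0.28, adjusted p = 5.81e-08). ALOX5, TRIM22 and SFN had larger fitted changes (3.57, 3.53 and 2.99), but at most 4 counts in any DMSO library at 6 h, so these sizes are not firm. Of 34 cell cycle genes that p53 is known to lower through the DREAM repressor complex, none passed as higher and 23 as lower. Their median was -0.32. The largest falls were in CENPA, a centromere histone (-0.68 ± 0.12), PLK1, a mitotic kinase (-0.66 ± 0.11), BUB1, a checkpoint kinase (-0.54 ± 0.07), and KIF23, a motor of cytokinesis (-0.54 ± 0.07). Immediate early genes, which respond to many stimuli, passed as higher in 2 and as lower in 2 of 27. ATF4 targets passed as higher in 6 and as lower in 4 of 29. Of all tested genes 17.5% passed in that comparison, and the immediate early count (14.8% of its list) lies near this share. What part the change in cell cycle genes has in the members' change was not tested.

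The climb with time was also present in the drug arms, to different degrees (the comparisons within drug arms were added after the data were seen). With the ibuprofen bolus all 30 members were higher at 18 h than at 6 h, with a median change of 0.96 (23.4% of all genes passed in either direction). With the ibufenac bolus 28 of 30 were higher, median 0.81 (19.2% of all genes). Photocaged ibuprofen gave 25 higher, median 0.74 (12.2%), and photocaged ibufenac 23 higher, median 0.68 (10.1%). The ibuprofen probe gave 27 higher, median 0.64 (14.4%). None of these 5 arms had a member called lower. The ibufenac probe gave 16 higher and 2 lower with a median of 0.35 (22.9%). An alternative chosen after the data were seen took trends on transcript GC content and length out of each library. With it that arm had 14 higher and 4 lower (30.7% of all genes). The pair called lower there without the correction was PMAIP1 (-0.61 ± 0.09, adjusted p = 5.01e-07) and GADD45A (-0.47 ± 0.13, adjusted p = 0.00593). The change in that arm, called or not, was above 0 in 24 of the 30 members, and the median change over all genes was 0.02. All 3 libraries at 18 h lay above all 3 at 6 h for 30 members with the ibuprofen bolus (background 21.3%), 28 with the ibuprofen probe (16.7%), 26 with the ibufenac bolus (14.4%), 25 with photocaged ibuprofen (14.1%), 23 with photocaged ibufenac (12.8%) and 19 with the ibufenac probe (20.3%).

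Across the 7 arms 16 members were higher at 18 h in all 7, among them CDKN1A, MDM2, TP53I3, FAS, DDB2, SESN1 and SPATA18. Another 6 were higher in 6 arms, 2 in 5, 3 in 4 and 3 in 3. How many of all tested genes were higher in as many arms was not counted. PLK2 and PLK3 were the pair called in 5 arms, AEN, GADD45A and PPM1D were called in 4, and BBC3, PIDD1 and PMAIP1 in 3. The change of TP53I3 ran from 0.92 to 3.07 over the arms and was lowest in the ibufenac probe, as was that of CDKN1A at 0.56. PMAIP1 ran from -0.61 with the ibufenac probe to 0.62. By 12 h the counts of members higher than at 6 h were 26 with the ibufenac bolus (5.83% of all genes passed in either direction), 25 with the ibuprofen bolus (8.84%), 17 with each photocaged form (5.52% for ibufenac and 5.82% for ibuprofen) and 16 with the ibuprofen probe (24.9%), with none lower. With the ibufenac probe 11 were higher and 5 lower at 12 h (23.5%). The 5 lower were BBC3 (-1.41), PIDD1 (-1.17), PMAIP1 (-0.80), GADD45A (-0.57) and AEN (-0.42). With GC and length trends removed it had 7 higher and 7 lower (28.1% of all genes), with a median of 0.02 against 0.16 without the correction. The changes of the GC-rich BBC3 and PIDD1 were then -0.66 and -0.68. Single libraries moved 3 of these 12 h counts by over 1.5 times: photocaged ibuprofen gave 10 calls without its 6 h replicate 1, photocaged ibufenac 11 without its 6 h replicate 1, and the ibufenac probe 10 without its 6 h replicate 3.

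**Figure D2:**
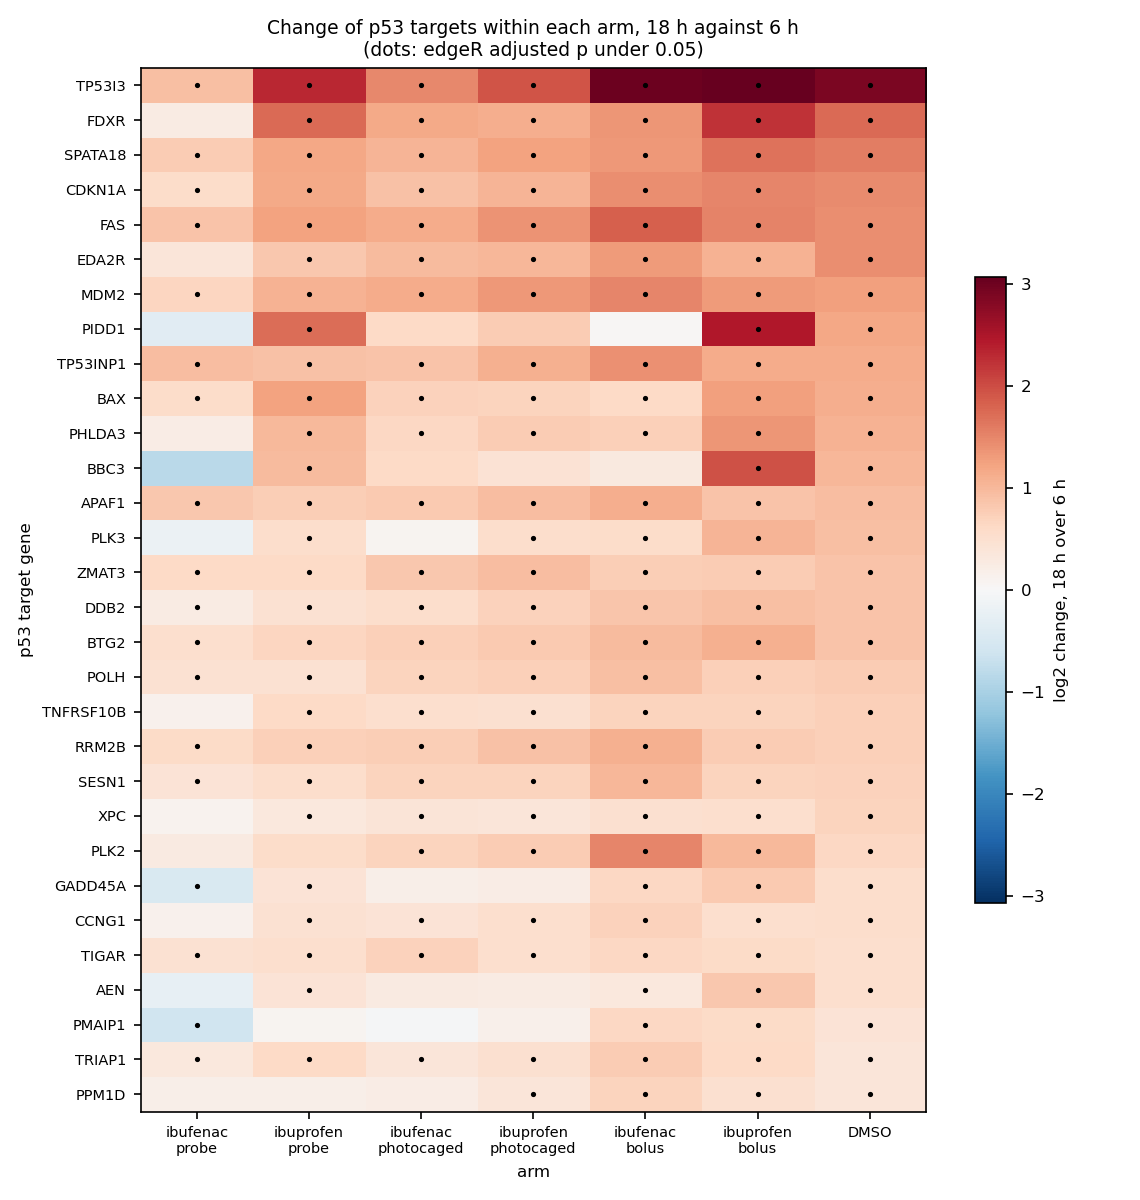
Log2 change at 18 h against 6 h of the 30 tested members in the 6 drug arms and DMSO, as colour, with dots where the adjusted p is under 0.05 (edgeR). All 30 members carry a dot in DMSO and with the ibuprofen bolus, and the ibufenac probe column is the palest, with 16 higher and 2 lower.

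At 6 h the members were higher with both probe forms and, in fewer genes, with both photocaged forms than in DMSO. The ibufenac probe gave the most, with 18 of 30 higher and none lower and a median change of 0.39, where 12.7% of all tested genes passed in either direction and 4.63% were higher. The ibuprofen probe had 12 higher and 1 lower, median 0.24 (11.4% of all genes passed, 3.61% as higher). Photocaged ibufenac had 7 higher and none lower, median 0.20 (3.03%, 1.78% as higher). Photocaged ibuprofen had 4 higher and none lower, median 0.18 (0.992%, 0.599% as higher). With the ibuprofen bolus no member passed (0% of all genes), with 4 at an unadjusted p under 0.05, and with the ibufenac bolus none passed (0.0258%), with 6. All 6 comparisons share the same 3 DMSO libraries.

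With the ibufenac probe 5 of 9 genes of arrest and feedback were called higher at 6 h. CDKN1A had 114, 122 and 108 CPM with the ibufenac probe, 88.7, 87.4 and 95.4 with the ibuprofen probe, 97.6, 106 and 95.1 with photocaged ibufenac and 92.9, 107 and 94.5 with photocaged ibuprofen. It had 80.0, 87.8 and 68.6 with the ibufenac bolus, 65.8, 73.2 and 72.4 with the ibuprofen bolus and 77.2, 80.1 and 70.6 in DMSO. Every probe and photocaged library lay above every DMSO library, while the bolus libraries overlapped them. CDKN1A rose by 0.60 ± 0.08, adjusted p = 9.93e-07 with the ibufenac probe, 0.25 ± 0.08, adjusted p = 0.0417 with the ibuprofen probe, 0.39 ± 0.08, adjusted p = 0.0037 with photocaged ibufenac and 0.37 ± 0.08, adjusted p = 0.0193 with photocaged ibuprofen. MDM2 had 691, 688 and 559 CPM with the ibufenac probe, 603, 650.4 and 538 with the ibuprofen probe, 555, 589 and 456 with photocaged ibufenac and 505, 551 and 529.7 with photocaged ibuprofen. It had 529, 514 and 574 with the ibufenac bolus, 542, 564 and 501 with the ibuprofen bolus and 526, 506 and 479 in DMSO. Its probe libraries lay above DMSO and its photocaged and bolus libraries overlapped it. It rose with the ibufenac probe (0.36 ± 0.08, adjusted p = 0.00085) and the ibuprofen probe (0.25 ± 0.08, adjusted p = 0.0307) and had 0.08 ± 0.08, adjusted p = 0.702 and 0.07 ± 0.08, adjusted p = 0.818 with photocaged ibufenac and photocaged ibuprofen, neither past the threshold. GADD45A had 59.1, 61.7 and 50.4 CPM with the ibufenac probe, 35.5, 35.9 and 29.4 with the ibuprofen probe, 46.8, 38.0 and 40.4 with photocaged ibufenac and 35.0, 43.9 and 38.1 with photocaged ibuprofen. It had 31.1, 36.4 and 22.8 with the ibufenac bolus, 28.3, 31.7 and 27.9 with the ibuprofen bolus and 29.8, 33.3 and 30.7 in DMSO. Only the ibufenac probe passed among the arms (0.87 ± 0.13, adjusted p = 3.11e-06), and the ibuprofen probe had 0.10 ± 0.13, adjusted p = 0.703. PLK3 had 9.93, 12.6 and 10.8 CPM with the ibufenac probe, 6.72, 4.37 and 4.94 with the ibuprofen probe, 8.03, 9.17 and 8.66 with photocaged ibufenac and 6.60, 5.16 and 8.08 with photocaged ibuprofen. It had 8.37, 6.94 and 4.50 with the ibufenac bolus, 6.60, 5.07 and 4.34 with the ibuprofen bolus and 6.43, 7.47 and 5.85 in DMSO. PLK3 rose with the ibufenac probe (0.75 ± 0.18, adjusted p = 0.00349), and its ibuprofen probe libraries overlapped DMSO. BTG2 had 45.8, 52.0 and 37.0 CPM with the ibufenac probe, 42.4, 46.4 and 43.5 with the ibuprofen probe, 44.8, 49.9 and 41.9 with photocaged ibufenac and 39.1, 51.2 and 46.9 with photocaged ibuprofen. It had 39.8, 42.9 and 34.7 with the ibufenac bolus, 36.3, 34.7 and 32.5 with the ibuprofen bolus and 38.5, 35.2 and 38.6 in DMSO. It passed in none of the 6 arms, with its largest change at 0.29 ± 0.10, adjusted p = 0.193 in photocaged ibuprofen. CCNG1 rose with the ibufenac probe (0.31), and PPM1D (0.30) and ZMAT3 (0.34) rose with the ibuprofen probe.

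Genes of cell death were called higher in 8 of 13 with the ibufenac probe, and PMAIP1 and TNFRSF10B had the smallest adjusted p of the 30 members. PMAIP1 had 142, 162 and 137 CPM with the ibufenac probe, 92.8, 104 and 94.5 with the ibuprofen probe, 95.5, 100.2 and 92.4 with photocaged ibufenac and 81.8, 96.0 and 89.6 with photocaged ibuprofen. It had 85.4, 81.8 and 62.0 with the ibufenac bolus, 83.4, 86.9 and 75.8 with the ibuprofen bolus and 78.7, 82.1 and 94.5 in DMSO. The ibufenac probe libraries stood apart from all other arms, and PMAIP1 rose there by 0.79 ± 0.09, adjusted p = 3.65e-09. TNFRSF10B had 166, 158 and 149.7 CPM with the ibufenac probe, 127, 129 and 127 with the ibuprofen probe, 131, 137 and 132 with photocaged ibufenac and 124, 143 and 137 with photocaged ibuprofen. It had 118, 123 and 111 with the ibufenac bolus, 114, 115 and 113 with the ibuprofen bolus and 117, 123 and 112 in DMSO. TNFRSF10B rose with the ibufenac probe (0.43 ± 0.05, adjusted p = 5.43e-08) and with photocaged ibufenac (0.18 ± 0.05, adjusted p = 0.043), and had 0.12 ± 0.05, adjusted p = 0.143 with the ibuprofen probe, whose libraries also lay above DMSO. TP53I3 had 12.0, 13.9 and 12.6 CPM with the ibufenac probe, 5.78, 7.14 and 6.36 with the ibuprofen probe, 9.07, 9.04 and 11.3 with photocaged ibufenac and 7.43, 10.4 and 7.28 with photocaged ibuprofen. It had 4.70, 5.72 and 2.46 with the ibufenac bolus, 4.33, 5.32 and 3.63 with the ibuprofen bolus and 3.86, 5.61 and 4.43 in DMSO. All probe and photocaged libraries lay above DMSO, and the call was made for the ibufenac probe (1.46 ± 0.20, adjusted p = 6.76e-07), photocaged ibufenac (1.07 ± 0.21, adjusted p = 0.000787) and photocaged ibuprofen (0.84 ± 0.21, adjusted p = 0.03) but not for the ibuprofen probe (0.47 ± 0.21, adjusted p = 0.145). FAS had 14.3, 12.3 and 12.4 CPM with the ibufenac probe, 14.4, 11.4 and 12.9 with the ibuprofen probe, 15.5, 16.9 and 13.0 with photocaged ibufenac and 12.6, 16.2 and 12.6 with photocaged ibuprofen. It had 9.19, 9.83 and 8.67 with the ibufenac bolus, 10.4, 8.67 and 9.14 with the ibuprofen bolus and 9.55, 7.94 and 10.1 in DMSO. It rose in 4 arms, by 0.50 ± 0.13, adjusted p = 0.00493 with the ibufenac probe, 0.49 ± 0.13, adjusted p = 0.00948 with the ibuprofen probe, 0.72 ± 0.13, adjusted p = 0.00019 with photocaged ibufenac and 0.58 ± 0.13, adjusted p = 0.014 with photocaged ibuprofen. TP53INP1 had 36.3, 31.9 and 24.1 CPM with the ibufenac probe, 36.8, 48.8 and 34.5 with the ibuprofen probe, 37.2, 36.2 and 33.9 with photocaged ibufenac and 33.0, 34.4 and 34.7 with photocaged ibuprofen. It had 31.4, 24.8 and 34.3 with the ibufenac bolus, 32.3, 31.3 and 28.2 with the ibuprofen bolus and 32.2, 28.2 and 27.3 in DMSO. The rise passed with the ibuprofen probe alone among the 6 (0.46 ± 0.12, adjusted p = 0.0124). TRIAP1 had 44.1, 43.6 and 48.9 CPM with the ibufenac probe, 44.7, 44.7 and 49.0 with the ibuprofen probe, 44.8, 52.7 and 48.0 with photocaged ibufenac, 50.7, 54.0 and 46.8 with photocaged ibuprofen, 40.4, 38.9 and 30.2 with the ibufenac bolus, 46.0, 43.6 and 42.3 with the ibuprofen bolus, and 46.0, 48.0 and 44.4 in DMSO, and it passed in no arm.

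BBC3 had 18.9, 28.8 and 31.0 CPM with the ibufenac probe, 4.33, 7.01 and 7.95 with the ibuprofen probe, 5.67, 6.83 and 16.1 with photocaged ibufenac and 9.09, 11.5 and 9.38 with photocaged ibuprofen. It had 12.7, 11.7 and 7.57 with the ibufenac bolus, 5.11, 5.75 and 6.31 with the ibuprofen bolus and 7.96, 11.9 and 13.4 in DMSO. It rose with the ibufenac probe (1.23 ± 0.33, adjusted p = 0.00715), whose libraries lay above DMSO, and its ibuprofen probe libraries lay below DMSO without passing (-0.79 ± 0.34, adjusted p = 0.133). AEN (0.47), EDA2R (0.56) and PHLDA3 (0.66) also rose with the ibufenac probe, and APAF1 (0.28) rose with the ibuprofen probe. PIDD1 was the member called lower at 6 h, with the ibuprofen probe (-1.45 ± 0.43, adjusted p = 0.0224). It had 5.02, 4.96 and 8.06 CPM there and 10.5, 19.1 and 19.1 in DMSO, and it overlaps the abundant RPLP2.

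Of the 4 repair genes 2 were called higher with the ibufenac probe and 3 with the ibuprofen probe at 6 h. XPC had 104, 104 and 103 CPM with the ibufenac probe, 92.5, 102 and 91.6 with the ibuprofen probe, 92.1, 91.0 and 83.5 with photocaged ibufenac and 79.5, 88.6 and 90.1 with photocaged ibuprofen. It had 78.9, 92.2 and 80.9 with the ibufenac bolus, 83.4, 78.1 and 81.1 with the ibuprofen bolus and 69.3, 74.4 and 83.4 in DMSO. Both probe arms and photocaged ibufenac lay above DMSO and passed (0.45 ± 0.07, adjusted p = 3.23e-06, 0.33 ± 0.07, adjusted p = 0.00146 and 0.23 ± 0.07, adjusted p = 0.0473). DDB2 had 74.9, 72.6 and 59.4 CPM with the ibufenac probe, 70.9, 76.5 and 68.7 with the ibuprofen probe, 71.3, 69.3 and 66.6 with photocaged ibufenac and 63.7, 68.1 and 71.5 with photocaged ibuprofen. It had 61.7, 58.5 and 57.8 with the ibufenac bolus, 55.2, 58.4 and 58.0 with the ibuprofen bolus and 52.8, 65.1 and 52.0 in DMSO. DDB2 rose with the ibufenac probe (0.28 ± 0.07, adjusted p = 0.00501), the ibuprofen probe (0.35 ± 0.07, adjusted p = 0.00157) and photocaged ibufenac (0.29 ± 0.07, adjusted p = 0.0146), although 1 ibufenac probe library lay within the DMSO range. POLH rose with the ibuprofen probe (0.45) and RRM2B passed in no arm at this time. Among the metabolic genes SESN1 had 51.0, 50.9 and 41.9 CPM with the ibufenac probe, 50.4, 57.6 and 50.6 with the ibuprofen probe, 49.2, 44.7 and 42.7 with photocaged ibufenac and 46.4, 46.1 and 49.3 with photocaged ibuprofen. It had 37.4, 39.5 and 35.3 with the ibufenac bolus, 44.1, 42.2 and 40.8 with the ibuprofen bolus and 42.1, 40.9 and 35.5 in DMSO. It rose with the ibuprofen probe (0.42 ± 0.09, adjusted p = 0.00278) and the ibufenac probe (0.28 ± 0.09, adjusted p = 0.0369). SPATA18 had 14.3, 17.8 and 13.1 CPM with the ibufenac probe, 15.5, 12.8 and 11.5 with the ibuprofen probe, 14.4, 14.9 and 15.1 with photocaged ibufenac and 12.1, 15.0 and 15.9 with photocaged ibuprofen. It had 15.0, 14.0 and 11.2 with the ibufenac bolus, 9.49, 11.8 and 9.04 with the ibuprofen bolus and 9.98, 11.6 and 7.58 in DMSO. It rose in 4 arms, by 0.63 ± 0.14, adjusted p = 0.000968 with the ibufenac probe, 0.45 ± 0.14, adjusted p = 0.0264 with the ibuprofen probe, 0.61 ± 0.14, adjusted p = 0.00526 with photocaged ibufenac and 0.57 ± 0.14, adjusted p = 0.0291 with photocaged ibuprofen. FDXR rose with the ibufenac probe (0.83 ± 0.25), and TIGAR passed in no arm.

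Some of these 6 h counts hang on single libraries. The 18 calls of the ibufenac probe stayed between 14 and 18 when any 1 library was left out. The 13 of the ibuprofen probe became 3 without its replicate 2, 8 without its replicate 1, 6 without DMSO replicate 2 and 4 without DMSO replicate 3. The 7 of photocaged ibufenac became 4 without its replicate 1 or 2, 4 without DMSO replicate 1 and 3 without DMSO replicate 3. The 4 of photocaged ibuprofen became 0 without its replicate 2, 2 without DMSO replicate 1 and 1 without DMSO replicate 3. With the ibufenac probe the calls of PMAIP1, TNFRSF10B, TP53I3, CDKN1A, GADD45A, XPC, MDM2, SPATA18, PLK3, AEN and CCNG1 passed without any 1 library. Leaving out DMSO replicate 1 ended the calls of BBC3, EDA2R, FDXR and PHLDA3, DMSO replicate 2 those of FAS and SESN1, and DMSO replicate 3 those of DDB2, EDA2R and SESN1. Leaving out ibufenac probe replicate 1 ended those of DDB2 and SESN1, replicate 2 those of EDA2R, FDXR and SESN1, and replicate 3 those of EDA2R, FDXR and PHLDA3 (adjusted p 0.0529 to 0.223 over these). With photocaged ibufenac FAS and TP53I3 passed without any 1 library, and the CDKN1A and SPATA18 calls ended without DMSO replicate 3 (adjusted p 0.0523 and 0.114). The DDB2, TNFRSF10B and XPC calls of that arm ended without any of several libraries. With the ibuprofen probe XPC and DDB2 passed without any 1 library, and SESN1 missed only without ibuprofen probe replicate 2 (adjusted p 0.0504).

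The lists around the members moved at 6 h as follows, where 12.7% of all genes passed in either direction with the ibufenac probe, 11.4% with the ibuprofen probe, 3.03% with photocaged ibufenac and 0.992% with photocaged ibuprofen. Of 45 further p53 targets, 9 were called higher and 1 lower with the ibufenac probe, and 8 higher and 3 lower with the ibuprofen probe. Each photocaged form had 2 called higher and none lower. The 2 calls with photocaged ibufenac are 4.44% of that list, near the share over all genes. GDF15 (1.78 ± 0.28), SESN2 (0.93 ± 0.15) and ATF3 (0.88 ± 0.11), which had the largest changes with the ibufenac probe, are also known ATF4 targets. Of 29 ATF4 targets 26 were called higher with the ibufenac probe (median 0.66), 15 with the ibuprofen probe, 16 with photocaged ibufenac and 10 with photocaged ibuprofen. None was called lower in these arms, and none passed in either bolus arm. The glutathione-degrading CHAC1 (2.24 ± 0.24), the stress regulator NUPR1 (2.01 ± 0.28), the pseudokinase TRIB3 (1.82 ± 0.09) and the transcription factor CEBPB (1.61 ± 0.23) led that list with the ibufenac probe. Of 34 cell cycle genes of the DREAM list 15 were lower and 2 higher with the ibufenac probe, 4 lower and 1 higher with the ibuprofen probe, 5 lower and 1 higher with photocaged ibufenac, and 2 lower and none higher with photocaged ibuprofen. As a share of the DREAM list, the calls with the ibuprofen probe lay near the share over all genes. Of 27 immediate early genes 6 were higher and 1 lower with the ibufenac probe, and 4 were lower and none higher with the ibuprofen probe. The 4 with the ibuprofen probe are 14.8% of that list, again near the share over all genes. What part ATF4 or any other factor has in the members' changes was not tested.

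**Figure D3:**
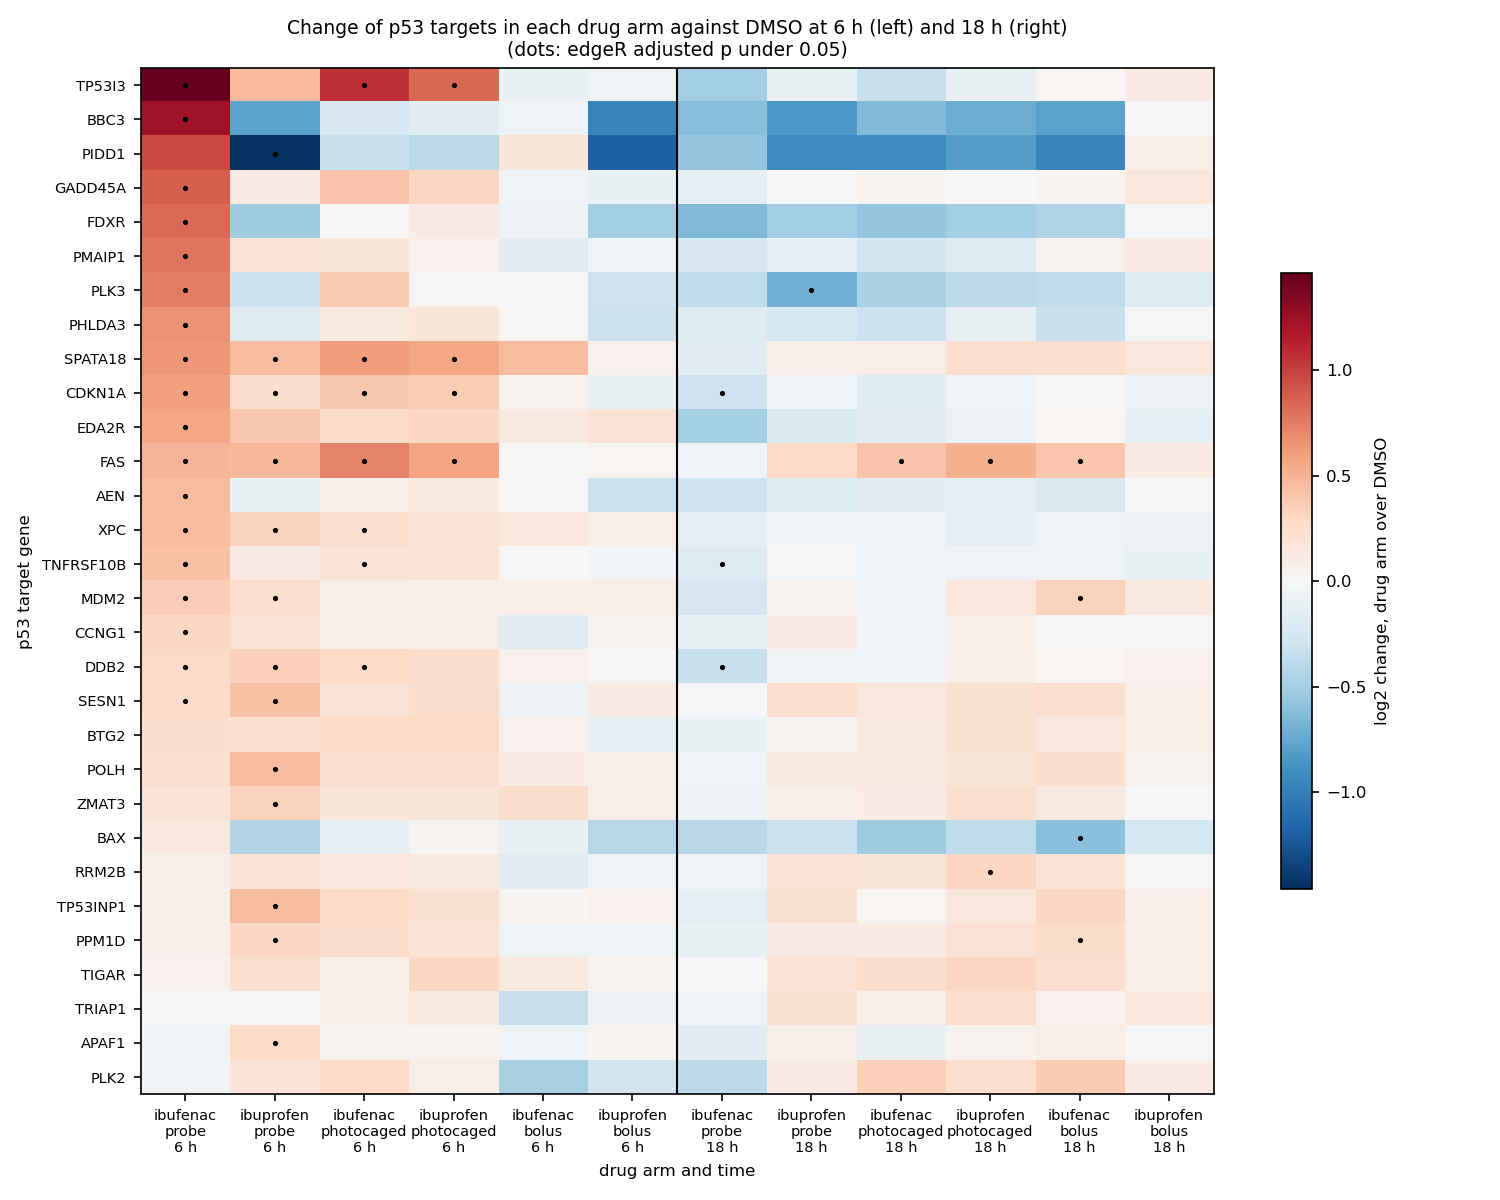
Log2 change against DMSO of the 30 tested members in the 6 drug arms at 6 h (left block) and 18 h (right block), as colour, with dots where the adjusted p is under 0.05 (edgeR). Dots fill the probe columns at 6 h (18 for the ibufenac probe, 13 for the ibuprofen probe) and are few at 18 h, where the ibufenac probe column has 3, all lower.

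At 12 h almost no member passed against DMSO. MDM2 with photocaged ibufenac was the 1 call over the 6 arms, and it was lower (-0.35 ± 0.08, adjusted p = 0.00707). Of all genes 1.58% passed with photocaged ibufenac, 4.51% with the ibufenac probe, 1.97% with the ibuprofen probe, 0.677% with photocaged ibuprofen, 0% with the ibufenac bolus and 0.0103% with the ibuprofen bolus. At an unadjusted p under 0.05 the arms without a call had 6, 8, 8, 6 and 3 members (ibufenac probe, ibuprofen probe, photocaged ibuprofen, ibufenac bolus and ibuprofen bolus). MDM2 had 872, 909.8 and 815 CPM with the ibufenac probe, 864, 910.4 and 944 with the ibuprofen probe, 736, 867 and 805 with photocaged ibufenac and 837, 963 and 857 with photocaged ibuprofen. It had 1064, 1152 and 1136 with the ibufenac bolus, 989.9, 1083 and 1024 with the ibuprofen bolus and 949.5, 1088 and 1039.9 in DMSO. Both probe arms lay below DMSO as well, without passing (-0.25 ± 0.08, adjusted p = 0.0543 and -0.18 ± 0.08, adjusted p = 0.25). CDKN1A had 121, 126 and 145 CPM with the ibufenac probe, 162, 165 and 153 with the ibuprofen probe, 148, 156 and 147 with photocaged ibufenac, 151, 177 and 160.4 with photocaged ibuprofen, 166, 174 and 157 with the ibufenac bolus, 139, 113 and 125 with the ibuprofen bolus, and 151, 161 and 143 in DMSO, and only the ibuprofen bolus did not overlap DMSO, from below (-0.27 ± 0.08, adjusted p = 0.511). TP53I3 had 17.5, 16.2 and 21.4 CPM with the ibufenac probe, 18.7, 20.7 and 16.1 with the ibuprofen probe, 18.8, 19.2 and 18.3 with photocaged ibufenac and 19.5, 19.7 and 17.5 with photocaged ibuprofen. It had 18.9, 18.9 and 19.4 with the ibufenac bolus, 14.5, 15.4 and 8.63 with the ibuprofen bolus and 12.3, 15.3 and 14.1 in DMSO. Its probe, photocaged and ibufenac bolus libraries lay above DMSO, and none of them passed. FAS had 18.6, 23.5 and 18.2 CPM with the ibufenac probe, 18.1, 20.0 and 20.0 with the ibuprofen probe, 24.5, 22.2 and 23.2 with photocaged ibufenac, 23.4, 26.6 and 23.4 with photocaged ibuprofen, 23.6, 23.3 and 20.9 with the ibufenac bolus, 18.3, 23.8 and 20.8 with the ibuprofen bolus, and 22.3, 25.0 and 20.6 in DMSO, and 5 of 6 arms overlapped DMSO. TP53INP1 had 58.3, 53.4 and 46.4 CPM with the ibufenac probe, 49.1, 63.5 and 57.4 with the ibuprofen probe, 49.6, 54.0 and 49.0 with photocaged ibufenac, 49.8, 54.1 and 48.9 with photocaged ibuprofen, 56.0, 61.6 and 61.9 with the ibufenac bolus, 44.9, 58.9 and 66.4 with the ibuprofen bolus, and 47.4, 58.9 and 54.3 in DMSO, with overlap in all 6 arms.

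The other members named for the averaged comparisons had no call at 12 h. BTG2 had 49.0, 57.0 and 55.3 CPM with the ibufenac probe, 54.8, 59.7 and 53.9 with the ibuprofen probe, 60.1, 61.1 and 60.7 with photocaged ibufenac and 56.4, 56.4 and 66.0 with photocaged ibuprofen. It had 61.8, 65.3 and 53.0 with the ibufenac bolus, 50.4, 48.6 and 47.2 with the ibuprofen bolus and 53.4, 55.5 and 57.1 in DMSO. BTG2 lay above DMSO with photocaged ibufenac, below it with the ibuprofen bolus and overlapped it in the other 4 arms. GADD45A had 31.5, 38.5 and 45.0 CPM with the ibufenac probe, 42.1, 40.7 and 37.6 with the ibuprofen probe, 40.6, 41.5 and 43.1 with photocaged ibufenac and 50.4, 41.4 and 45.9 with photocaged ibuprofen. It had 33.4, 34.8 and 38.3 with the ibufenac bolus, 33.1, 43.9 and 29.3 with the ibuprofen bolus and 35.6, 35.7 and 37.1 in DMSO. GADD45A lay above DMSO with the ibuprofen probe, photocaged ibufenac and photocaged ibuprofen and overlapped it in the other 3 arms. PLK3 had 7.01, 7.52 and 10.1 CPM with the ibufenac probe, 8.45, 6.91 and 8.34 with the ibuprofen probe, 12.5, 8.33 and 9.68 with photocaged ibufenac and 7.75, 9.19 and 8.04 with photocaged ibuprofen. It had 10.9, 11.7 and 9.13 with the ibufenac bolus, 9.72, 8.88 and 6.19 with the ibuprofen bolus and 9.67, 8.85 and 7.24 in DMSO. PLK3 overlapped DMSO in all 6 arms. DDB2 had 78.2, 78.4 and 82.6 CPM with the ibufenac probe, 73.8, 81.1 and 78.8 with the ibuprofen probe, 77.8, 84.4 and 84.6 with photocaged ibufenac and 87.3, 94.9 and 87.9 with photocaged ibuprofen. It had 97.4, 87.6 and 86.4 with the ibufenac bolus, 82.6, 74.9 and 76.2 with the ibuprofen bolus and 84.4, 82.8 and 80.5 in DMSO. DDB2 lay above DMSO with photocaged ibuprofen and the ibufenac bolus and overlapped it in the other 4 arms. XPC had 102, 101 and 111 CPM with the ibufenac probe, 97.1, 108 and 98.9 with the ibuprofen probe, 91.0, 101 and 93.3 with photocaged ibufenac and 99.6, 104 and 99.2 with photocaged ibuprofen. It had 106, 111 and 109 with the ibufenac bolus, 99.9, 107 and 86.2 with the ibuprofen bolus and 94.9, 98.9 and 102 in DMSO. XPC lay above DMSO with the ibufenac bolus and overlapped it in the other 5 arms. SESN1 had 54.7, 59.4 and 61.2 CPM with the ibufenac probe, 55.6, 61.7 and 57.1 with the ibuprofen probe, 58.8, 59.6 and 61.5 with photocaged ibufenac and 66.1, 65.2 and 54.8 with photocaged ibuprofen. It had 61.2, 57.8 and 55.8 with the ibufenac bolus, 56.8, 58.9 and 50.1 with the ibuprofen bolus and 52.8, 55.7 and 57.7 in DMSO. SESN1 lay above DMSO with photocaged ibufenac and overlapped it in the other 5 arms. SPATA18 had 21.6, 21.5 and 24.9 CPM with the ibufenac probe, 20.2, 21.8 and 20.3 with the ibuprofen probe, 24.2, 24.7 and 23.5 with photocaged ibufenac and 22.4, 29.0 and 24.5 with photocaged ibuprofen. It had 26.1, 22.7 and 23.2 with the ibufenac bolus, 22.7, 22.1 and 17.6 with the ibuprofen bolus and 18.5, 21.6 and 23.1 in DMSO. SPATA18 lay above DMSO with photocaged ibufenac and overlapped it in the other 5 arms. TRIAP1 had 46.1, 51.1 and 62.7 CPM with the ibufenac probe, 49.8, 52.7 and 47.2 with the ibuprofen probe, 56.6, 59.0 and 59.5 with photocaged ibufenac and 64.0, 70.0 and 52.3 with photocaged ibuprofen. It had 54.4, 58.4 and 53.5 with the ibufenac bolus, 51.8, 49.9 and 44.7 with the ibuprofen bolus and 51.0, 53.6 and 60.5 in DMSO. TRIAP1 overlapped DMSO in all 6 arms.

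At 18 h the members were no longer higher in the probe arms. With the ibufenac probe 3 of 30 were lower than in DMSO and none higher (2.69% of all genes passed in either direction, 0.889% as lower). The change was below 0 in all 30, with a median of -0.17. All 30 changes rest on the same DMSO and ibufenac probe libraries, and the share of all genes below 0 is not given here. The ibuprofen probe had 1 lower (1.78%), photocaged ibuprofen 2 higher (2.21%), photocaged ibufenac 1 higher (2.86%) and the ibufenac bolus 3 higher and 1 lower (5.03%). The ibuprofen bolus had no call (0.0723%), with 0 members at an unadjusted p under 0.05. CDKN1A had 174, 175 and 157 CPM with the ibufenac probe, 189, 211 and 212 with the ibuprofen probe, 169.6, 199 and 184 with photocaged ibufenac and 191, 218 and 200.03 with photocaged ibuprofen. It had 203, 227 and 203 with the ibufenac bolus, 192, 213 and 192 with the ibuprofen bolus and 201, 232 and 193 in DMSO. It fell with the ibufenac probe (-0.31 ± 0.08, adjusted p = 0.0304), with no overlap with DMSO, and the other 5 arms overlapped DMSO. DDB2 had 76.4, 86.3 and 84.1 CPM with the ibufenac probe, 98.0, 99.9 and 102 with the ibuprofen probe, 103, 100.2 and 97.8 with photocaged ibufenac, 113, 113 and 107 with photocaged ibuprofen, 105, 112 and 101 with the ibufenac bolus, 113, 108 and 103 with the ibuprofen bolus, and 102, 109 and 100.01 in DMSO, and it fell with the ibufenac probe (-0.33 ± 0.07, adjusted p = 0.00374). TNFRSF10B had 174, 174 and 168 CPM with the ibufenac probe, 191, 191 and 198 with the ibuprofen probe, 193, 187 and 190.4 with photocaged ibufenac, 182, 188 and 199.5 with photocaged ibuprofen, 191, 193 and 182 with the ibufenac bolus, 180.1, 190.0 and 179 with the ibuprofen bolus, and 193, 205 and 191 in DMSO, and it fell there too (-0.19 ± 0.05, adjusted p = 0.0393). These 3 calls were not firm. Only 1 was left without DMSO 18 h replicate 2 or without ibufenac probe 18 h replicate 2 or 3. None was left without ibufenac probe 18 h replicate 1. With GC and length trends removed the ibufenac probe had 7 members lower and none higher at 18 h, median -0.24 (3% of all genes).

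FAS was the member most often higher at 18 h. It had 23.5, 25.3 and 23.0 CPM with the ibufenac probe, 27.4, 30.0 and 33.9 with the ibuprofen probe, 30.3, 36.3 and 33.1 with photocaged ibufenac and 34.6, 35.8 and 36.6 with photocaged ibuprofen. It had 33.6, 33.4 and 31.7 with the ibufenac bolus, 30.0, 26.2 and 24.7 with the ibuprofen bolus and 22.2, 29.5 and 22.8 in DMSO. Both photocaged forms and the ibufenac bolus lay wholly above DMSO and passed (0.52 ± 0.12, adjusted p = 0.0129 with photocaged ibuprofen, 0.42 ± 0.12, adjusted p = 0.0363 with photocaged ibufenac, and 0.40 ± 0.12, adjusted p = 0.0352 with the ibufenac bolus). RRM2B also rose with photocaged ibuprofen (0.30 ± 0.09, adjusted p = 0.0471). None of these 4 calls held with GC and length trends removed. FAS then had 0.35, adjusted p = 0.0642 with photocaged ibuprofen, 0.27, adjusted p = 0.185 with photocaged ibufenac and 0.25, adjusted p = 0.256 with the ibufenac bolus, and RRM2B had 0.13, adjusted p = 0.416 with photocaged ibuprofen. The calls in the photocaged arms were then lower ones. With photocaged ibuprofen PMAIP1 was called (-0.39, adjusted p = 0.0176, 3.56% of all genes). With photocaged ibufenac PMAIP1 and BAX were called (-0.43, adjusted p = 0.00943 and -0.42, adjusted p = 0.0433, 2.83% of all genes). MDM2 had 945, 1068 and 1046 CPM with the ibufenac probe, 1267, 1279 and 1207 with the ibuprofen probe, 1150.0, 1182 and 1183 with photocaged ibufenac and 1271, 1349 and 1397 with photocaged ibuprofen. It had 1451, 1554 and 1564 with the ibufenac bolus, 1410.3, 1257 and 1281 with the ibuprofen bolus and 1157, 1282 and 1178 in DMSO. It rose with the ibufenac bolus (0.34 ± 0.08, adjusted p = 0.0092), as did PPM1D (0.27 ± 0.08, adjusted p = 0.0396), while BAX fell (-0.61 ± 0.16, adjusted p = 0.023). The 4 calls of the ibufenac bolus became 0 without its 18 h replicate 3, 2 without its 18 h replicate 1 and 2 without DMSO 18 h replicate 3, and its replicate 3 had the lowest slope on GC content of the group. MDM2 was its 1 call once GC and length trends were removed (0.23, adjusted p = 0.0492, 1.32% of all genes). PLK3 had 11.5, 8.76 and 8.88 CPM with the ibufenac probe, 7.83, 7.45 and 7.89 with the ibuprofen probe, 8.79, 9.38 and 9.06 with photocaged ibufenac and 8.63, 10.9 and 9.33 with photocaged ibuprofen. It had 9.74, 10.5 and 8.97 with the ibufenac bolus, 11.6, 10.6 and 11.0 with the ibuprofen bolus and 12.9, 12.5 and 12.3 in DMSO. All 6 drug arms lay below DMSO, and the ibuprofen probe passed (-0.70 ± 0.18, adjusted p = 0.0322), though not after the GC and length correction (-0.48, adjusted p = 0.179). TP53I3 had 24.4, 25.4 and 23.1 CPM with the ibufenac probe, 30.4, 33.6 and 31.9 with the ibuprofen probe, 19.8, 31.5 and 30.5 with photocaged ibufenac and 31.5, 37.1 and 26.8 with photocaged ibuprofen. It had 34.7, 41.4 and 28.8 with the ibufenac bolus, 36.7, 37.5 and 37.8 with the ibuprofen bolus and 37.1, 39.4 and 26.3 in DMSO. Its ibufenac probe libraries lay below DMSO without passing (-0.49 ± 0.18, adjusted p = 0.144).

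The remaining members named for the averaged comparisons had no call at 18 h. BTG2 had 63.5, 63.1 and 66.0 CPM with the ibufenac probe, 64.4, 76.0 and 70.1 with the ibuprofen probe, 76.4, 77.8 and 72.4 with photocaged ibufenac and 74.4, 86.9 and 77.6 with photocaged ibuprofen. It had 76.7, 76.5 and 76.5 with the ibufenac bolus, 67.9, 81.5 and 69.6 with the ibuprofen bolus and 71.8, 76.4 and 57.0 in DMSO. BTG2 lay above DMSO with the ibufenac bolus and overlapped it in the other 5 arms. GADD45A had 37.8, 41.2 and 45.0 CPM with the ibufenac probe, 42.2, 45.3 and 47.8 with the ibuprofen probe, 39.9, 53.1 and 48.3 with photocaged ibufenac and 43.7, 54.0 and 38.8 with photocaged ibuprofen. It had 46.8, 46.3 and 47.7 with the ibufenac bolus, 51.0, 55.5 and 48.0 with the ibuprofen bolus and 46.8, 47.6 and 42.9 in DMSO. GADD45A lay above DMSO with the ibuprofen bolus and overlapped it in the other 5 arms. XPC had 113, 118 and 101 CPM with the ibufenac probe, 117, 121 and 117 with the ibuprofen probe, 113, 122 and 119 with photocaged ibufenac and 109, 115 and 111 with photocaged ibuprofen. It had 116, 121 and 117 with the ibufenac bolus, 117, 119 and 111 with the ibuprofen bolus and 122, 121 and 123 in DMSO. XPC lay below DMSO with the ibufenac probe, photocaged ibuprofen and the ibuprofen bolus and overlapped it in the other 3 arms. SESN1 had 63.4, 65.5 and 62.0 CPM with the ibufenac probe, 81.1, 81.5 and 67.3 with the ibuprofen probe, 72.5, 74.2 and 71.2 with photocaged ibufenac and 73.0, 75.7 and 77.4 with photocaged ibuprofen. It had 76.4, 71.5 and 79.9 with the ibufenac bolus, 69.4, 70.1 and 64.9 with the ibuprofen bolus and 51.2, 66.0 and 76.5 in DMSO. SESN1 overlapped DMSO in all 6 arms. SPATA18 had 26.6, 26.9 and 24.0 CPM with the ibufenac probe, 30.0, 30.5 and 30.2 with the ibuprofen probe, 27.8, 33.9 and 30.3 with photocaged ibufenac and 34.7, 33.9 and 33.7 with photocaged ibuprofen. It had 33.6, 34.7 and 33.1 with the ibufenac bolus, 31.6, 33.6 and 31.5 with the ibuprofen bolus and 23.8, 33.7 and 28.7 in DMSO. SPATA18 overlapped DMSO in all 6 arms. TP53INP1 had 54.3, 65.8 and 57.2 CPM with the ibufenac probe, 77.2, 75.8 and 72.7 with the ibuprofen probe, 67.3, 64.9 and 65.9 with photocaged ibufenac and 67.5, 74.4 and 75.7 with photocaged ibuprofen. It had 78.8, 85.8 and 74.7 with the ibufenac bolus, 68.4, 68.3 and 67.0 with the ibuprofen bolus and 67.4, 70.1 and 56.6 in DMSO. TP53INP1 lay above DMSO with the ibuprofen probe and the ibufenac bolus and overlapped it in the other 4 arms. TRIAP1 had 58.1, 60.9 and 53.5 CPM with the ibufenac probe, 71.4, 68.6 and 69.6 with the ibuprofen probe, 64.6, 63.6 and 60.7 with photocaged ibufenac and 70.7, 71.1 and 72.1 with photocaged ibuprofen. It had 69.2, 62.0 and 57.4 with the ibufenac bolus, 66.7, 72.6 and 63.1 with the ibuprofen bolus and 54.5, 60.8 and 64.7 in DMSO. TRIAP1 lay above DMSO with the ibuprofen probe and photocaged ibuprofen and overlapped it in the other 4 arms.

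Averaged over the 3 times, with 9 libraries per arm, few members differed from DMSO, and FAS led in both photocaged forms. Photocaged ibuprofen had 7 higher and none lower (4.28% of all genes passed in either direction, 1.98% as higher). They were FAS (0.40 ± 0.07, adjusted p = 0.000172), SPATA18 (0.36 ± 0.08, adjusted p = 0.00244), SESN1 (0.22 ± 0.05, adjusted p = 0.0105), DDB2 (0.16 ± 0.04, adjusted p = 0.0146), BTG2 (0.21 ± 0.06), TP53I3 (0.39 ± 0.11) and TRIAP1 (0.18 ± 0.06). Photocaged ibufenac had 5 higher and none lower (7.49%, 4.13% as higher), namely FAS (0.39 ± 0.07, adjusted p = 9.73e-05), SPATA18 (0.30 ± 0.08, adjusted p = 0.00714), TP53I3 (0.39 ± 0.11), BTG2 (0.19 ± 0.06) and SESN1 (0.16 ± 0.05). With GC and length trends removed photocaged ibufenac had 3 higher (TP53I3, SPATA18 and FAS). It had 2 lower, MDM2 (-0.12, adjusted p = 0.0281) and APAF1 (-0.13, adjusted p = 0.0219), where 9.58% of all genes passed. Photocaged ibuprofen then had 6 higher and none lower (6.34% of all genes). These comparisons share their 9 DMSO libraries. FAS and SPATA18 passed in both arms without any 1 library, and so did SESN1 with photocaged ibuprofen. The 7 calls became 4 without DMSO 6 h replicate 3, DMSO 12 h replicate 1, photocaged ibuprofen 6 h replicate 2 or photocaged ibuprofen 18 h replicate 2. The 5 became 3 without any 1 of DMSO 6 h replicate 2, DMSO 12 h replicates 1 and 2, DMSO 18 h replicate 3, photocaged ibufenac 6 h replicate 1, or photocaged ibufenac 12 h replicates 1 and 3, and 2 without photocaged ibufenac 18 h replicate 2.

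Few members passed with the probes over the 3 times, and their shares of the tested members lay near or below those over all genes. The ibufenac probe had 3 higher (13.2% of all genes), TP53I3 (0.46 ± 0.11, adjusted p = 0.00243), GADD45A (0.27 ± 0.08, adjusted p = 0.0101) and XPC (0.13 ± 0.04, adjusted p = 0.0145), and 5 passed without DMSO 18 h replicate 3. The ibuprofen probe had 2 higher and 1 lower (8.43%), SESN1 (0.25 ± 0.05, adjusted p = 0.00172), TP53INP1 (0.25 ± 0.07, adjusted p = 0.0173) and PLK3 (-0.38 ± 0.11, adjusted p = 0.0193). It had 4 higher and 1 lower with RLE factors, and 4 higher and none lower with GC and length trends removed (8.89% of all genes). The TP53INP1 and PLK3 calls ended without DMSO 12 h replicate 1 or ibuprofen probe 6 h replicate 2, the PLK3 call also without DMSO 6 h replicate 2 and the TP53INP1 call without ibuprofen probe 12 h replicate 2, whereas 5 members passed without DMSO 12 h replicate 3. CDKN1A had 0.02 ± 0.05, adjusted p = 0.831 with the ibufenac probe and 0.10 ± 0.05, adjusted p = 0.217 with the ibuprofen probe, and MDM2 had -0.04 ± 0.04, adjusted p = 0.625 and 0.04 ± 0.04, adjusted p = 0.656, so neither passed. No member passed with the ibuprofen bolus (0.0258% of all genes, 4 members at an unadjusted p under 0.05, 0 by DESeq2) or the ibufenac bolus (0.0103%, 7 members, 1 by DESeq2). For CDKN1A the 95% interval of the change was -0.25 to -0.05 with the ibuprofen bolus and -0.03 to 0.16 with the ibufenac bolus, and for FAS -0.13 to 0.15 and 0.00 to 0.28.

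Whether a drug arm's difference from DMSO changed with time was tested with 12 contrasts at once (edgeR). It did for 23 of 30 members, where 22.8% of all tested genes passed. PMAIP1 had the smallest adjusted p (1.86e-09), followed by CDKN1A (4.11e-07) and TP53I3 (7.87e-07). The 7 members that did not pass were PLK2, APAF1, POLH, BTG2, ZMAT3, TP53INP1 and TIGAR. For CDKN1A the difference of the ibufenac probe from DMSO was 0.60 ± 0.08 at 6 h, -0.22 ± 0.08 at 12 h and -0.31 ± 0.08 at 18 h. For PMAIP1 it was 0.79 ± 0.09, -0.17 ± 0.09 and -0.23 ± 0.09 at these times, and for TP53I3 1.46 ± 0.20, 0.41 ± 0.18 and -0.49 ± 0.18. In these 3 genes the ibufenac probe stood above DMSO at 6 h and below it at 18 h.

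Ibufenac and ibuprofen, which differ by the α-methyl group, were compared in the same form and at the same time, in 3 forms at 3 times and averaged, 12 comparisons in all. They differed in the probe form at 6 h, where 12 of 30 members were higher with ibufenac and 3 lower, and 23.6% of all tested genes passed in either direction. Genes of cell death made up 8 of the 12 higher members and 2 of the 3 lower ones, and they are 13 of the 30 tested members. PMAIP1 had 142, 162 and 137 CPM with the ibufenac probe and 92.8, 104 and 94.5 with the ibuprofen probe, a difference of 0.60 ± 0.09, adjusted p = 4.56e-06. TNFRSF10B had 166, 158 and 149.7 with ibufenac and 127, 129 and 127 with ibuprofen (0.31 ± 0.05, adjusted p = 4.02e-05). BBC3 had 18.9, 28.8 and 31.0 with ibufenac and 4.33, 7.01 and 7.95 with ibuprofen (2.02 ± 0.34, adjusted p = 3e-05). GADD45A had 59.1, 61.7 and 50.4 with ibufenac and 35.5, 35.9 and 29.4 with ibuprofen (0.76 ± 0.13, adjusted p = 3.25e-05). The libraries of the 2 probes did not overlap in any of these 4 genes. PLK3 (1.06 ± 0.19), PIDD1 (2.41 ± 0.43), FDXR (1.35 ± 0.26), TP53I3 (0.99 ± 0.20, adjusted p = 0.000222), AEN (0.56 ± 0.12), PHLDA3 (0.84 ± 0.20), BAX (0.59 ± 0.17) and CDKN1A (0.34 ± 0.08, adjusted p = 0.00198) were the other higher members. TP53INP1 (-0.38 ± 0.12), APAF1 (-0.31 ± 0.08) and PPM1D (-0.23 ± 0.08) were lower with ibufenac. The PPM1D and TP53INP1 calls ended without ibuprofen probe 6 h replicate 2 or ibufenac probe 6 h replicate 3, and that of PPM1D also without ibuprofen probe 6 h replicate 1 (adjusted p 0.0845 to 0.394).

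Base composition of the transcripts moved with this difference. The slope of a library's log2 CPM on transcript GC content, over all tested genes, was 0.063, 0.148 and 0.167 per 10 percentage points in the ibufenac probe libraries at 6 h, -0.262, -0.274 and -0.12 in the ibuprofen probe libraries, and -0.063, 0.081 and 0.067 in DMSO. BBC3 (69.69% GC), PIDD1 (66.04%), FDXR (61.8%), PLK3 (61.16%) and PHLDA3 (59.58%) are the richest in GC of the members, against a median of 48.3% over all tested genes, and PMAIP1 has 37.22%. Of the 14 members above that median 13 had a difference above 0, called or not, and of the 16 below it 6 had. With GC and length trends taken out of each library 11 members were higher and none lower (13.5% of all genes passed). PMAIP1 (0.84, adjusted p = 4.34e-08), GADD45A (0.88, adjusted p = 3.36e-05), TNFRSF10B (0.42, adjusted p = 3.61e-06) and MDM2 (0.36, adjusted p = 5.98e-05) were then higher with ibufenac. CDKN1A no longer passed (0.05, adjusted p = 0.769), nor did any of the 3 lower members, and the difference of BBC3 shrank to 0.69 and that of PIDD1 to 1.45. Against DMSO the same correction gave 22 higher members with the ibufenac probe at 6 h (14% of all genes) and 7 with the ibuprofen probe (5.69%). With it the ibuprofen probe difference of CDKN1A was 0.50, adjusted p = 7.9e-05, that of TP53I3 was 0.74, adjusted p = 0.00903, and PIDD1 and FAS no longer passed (-0.73, adjusted p = 0.0852 and 0.34, adjusted p = 0.0811). The rise with time in DMSO kept all 30 calls, with a median of 0.80 (21% of all genes).

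**Figure D4:**
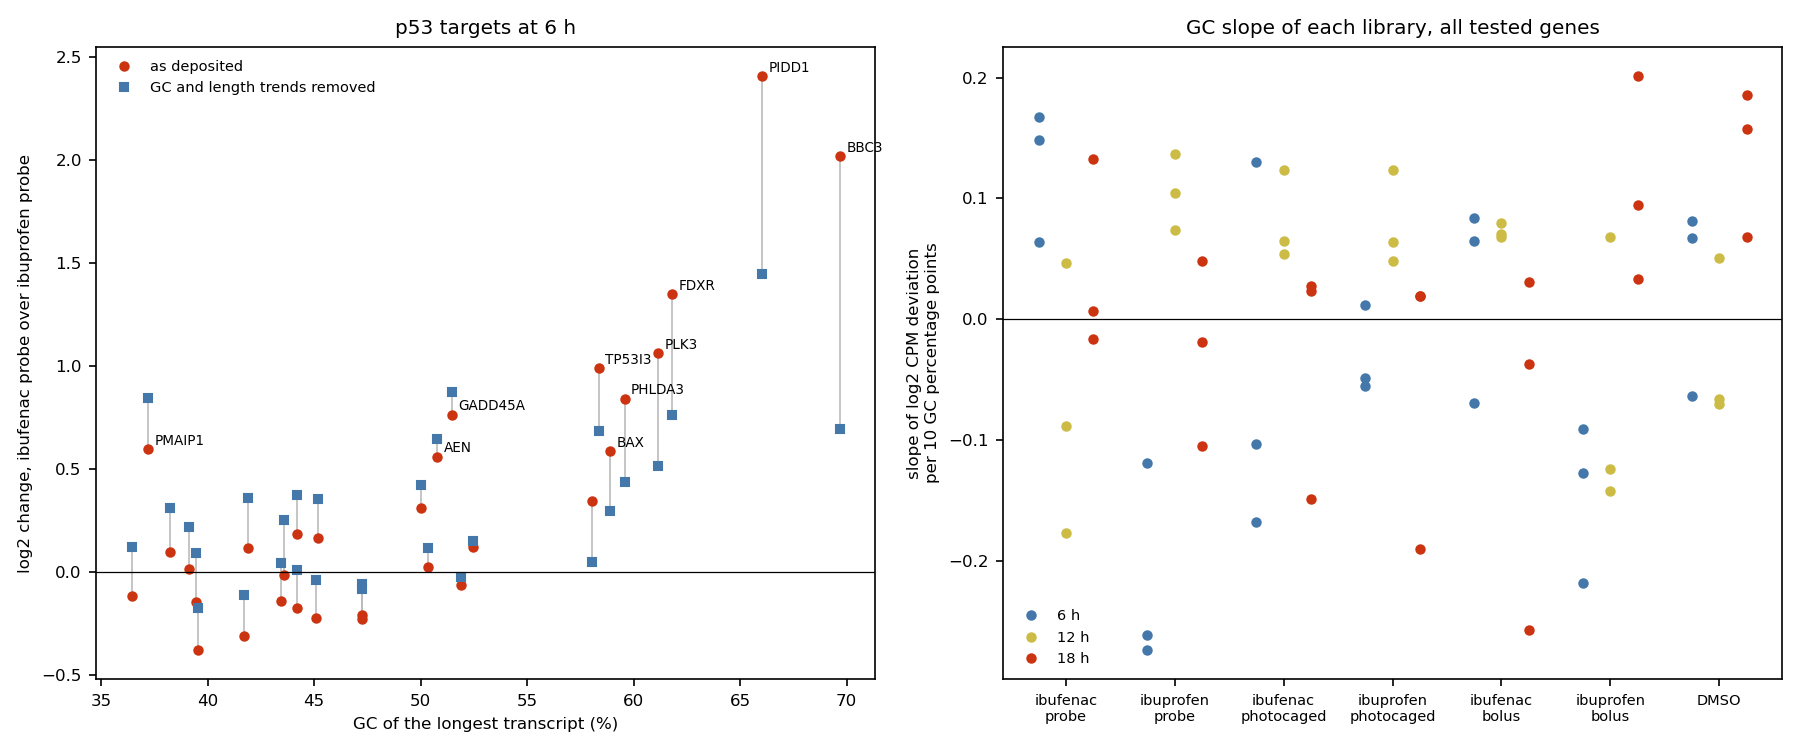
Left, log2 difference of the ibufenac probe over the ibuprofen probe at 6 h for each member against the GC content of its transcript in percent. Values are from the main fit without correction (marked as deposited) and with GC and length trends removed. Right, the slope of log2 CPM on GC content per 10 percentage points in every library by arm and time, over all tested genes. GC-rich members such as BBC3 (69.69%) drop most after the correction, and the ibuprofen probe libraries at 6 h have negative slopes (-0.262, -0.274 and -0.12).

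At 12 and 18 h no member passed between the probes, where 1.92% and 0% of all genes passed, and 6 and 14 members had an unadjusted p under 0.05. At 18 h the 95% interval of the difference, not adjusted for the number of genes, was -0.44 to -0.10 for CDKN1A, -0.28 to 0.07 for PMAIP1 and -0.45 to -0.14 for MDM2. Averaged over the times PLK3 was higher with the ibufenac probe (0.48 ± 0.11, adjusted p = 0.00459) and APAF1 (-0.22 ± 0.05, adjusted p = 0.00269) and TP53INP1 (-0.28 ± 0.07, adjusted p = 0.0169) were lower (2.82% of all genes). PMAIP1 was also higher once GC and length trends were removed (0.19, adjusted p = 0.0427), where 3.72% of all genes passed. No member passed between the 2 photocaged forms at any single time, for which the shares over all genes are not given here. None passed between these 2 forms over the times either (0.0362% of all genes, with 2 members at an unadjusted p under 0.05 and 0 by DESeq2). Their averaged difference had a 95% interval of -0.17 to 0.02 for CDKN1A, -0.15 to 0.13 for FAS, -0.20 to -0.02 for MDM2 and -0.23 to 0.22 for TP53I3. No member passed between the 2 boluses over the times (0% of all genes, 7 members at an unadjusted p under 0.05, 1 by DESeq2), with intervals of 0.12 to 0.31 for CDKN1A and -0.01 to 0.27 for FAS. No member passed between the boluses at 6 h either (2.3% of all genes, 6 members at an unadjusted p under 0.05) or at 18 h (0%, 7 members). At 12 h CDKN1A was higher with the ibufenac bolus, at 166, 174 and 157 CPM, than with the ibuprofen bolus, at 139, 113 and 125 CPM (0.40 ± 0.08, adjusted p = 0.0494, 0.0362% of all genes).

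Forms of the same drug were compared over the 3 times without use of DMSO. Photocaged ibuprofen had 10 members higher and none lower than the ibuprofen bolus (3.43% of all genes). CDKN1A (0.29 ± 0.05, adjusted p = 0.000113) and FAS (0.39 ± 0.07, adjusted p = 0.000269) led, with TP53I3 (0.41 ± 0.11), SPATA18 (0.29 ± 0.08), BTG2 (0.27 ± 0.06), AEN, TRIAP1, RRM2B, TNFRSF10B and DDB2 (0.16 to 0.26) behind them. The ibuprofen probe had 3 higher than the ibuprofen bolus (3.7%), CDKN1A (0.25 ± 0.05, adjusted p = 0.000881), SESN1 (0.19 ± 0.05) and TNFRSF10B (0.12 ± 0.03), and 1 passed without ibuprofen probe 12 h replicate 2. For ibufenac MDM2 was lower with the photocaged form than with the bolus (-0.29 ± 0.04, adjusted p = 1.33e-05), and FAS (0.26 ± 0.07) and GADD45A (0.24 ± 0.08) were higher (6.05% of all genes). That count of 3 became 6 without ibufenac bolus 6 h replicate 1 and 5 without its replicate 2. Removal of GC and length trends left 1 higher (FAS) and 2 lower (MDM2 and APAF1), where 7.16% of all genes passed. MDM2 was also lower with the ibufenac probe than with the ibufenac bolus (-0.23 ± 0.04, adjusted p = 0.000261), as was APAF1 (-0.14 ± 0.05), while TP53I3 (0.33 ± 0.11) and GADD45A (0.28 ± 0.08) were higher (11.2%). As a share of the tested members these calls lay near that over all genes. That count of 4 became 2 without any 1 of ibufenac probe 6 h replicates 2 and 3, ibufenac probe 12 h replicate 3, ibufenac probe 18 h replicate 1, ibufenac bolus 6 h replicate 3, ibufenac bolus 12 h replicates 1 and 3, and ibufenac bolus 18 h replicates 1 and 3, and with RLE factors 2 were higher and 1 lower. The ibufenac probe had FAS (-0.30 ± 0.07, adjusted p = 0.00778), PLK2 (-0.48 ± 0.12), RRM2B (-0.20 ± 0.05) and PPM1D (-0.16 ± 0.05) lower than photocaged ibufenac (2.68%), and 2 of the 4 calls were left without photocaged ibufenac 6 h replicate 1 or 12 h replicate 2. After the GC and length correction PLK2 and FAS were lower and PMAIP1 was higher (0.21, adjusted p = 0.0283), where 3.72% of all genes passed. No member passed between the ibuprofen probe and photocaged ibuprofen (0.0982%, 9 members at an unadjusted p under 0.05, 0 by DESeq2), with intervals of -0.14 to 0.05 for CDKN1A and -0.36 to -0.08 for FAS.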

How the data were processed

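Total RNA was sequenced from 63 libraries of HEK293T cells with a stranded, ribosomal-RNA-depleting kit, per the labels' protocols. The deposited table gives expected counts per gene, and a second deposited table gives FPKM; the aligner, the counter, the build it used and the counting strand are not stated in the sources at hand. Expected counts were rounded to whole numbers (22.6% of values of at least 1 were not whole), and total counts per library were 12.1 to 38.4 M. Samples were grouped by arm and time as labelled. Genes passing edgeR's filter (minimum count 10) were fitted in 1 model of 21 groups with TMM factors and the quasi-likelihood test (edgeR 4.0.16, limma 3.58.1, R 4.3.3), two-sided, with Benjamini-Hochberg adjustment over 19352 genes within each of 57 comparisons and a threshold of 0.05. Values after ± are standard errors of log2 changes, and CPM values are counts scaled to TMM library sizes. The code was tested on simulated data. Alternatives were RLE factors, no filter, a replicate block, DESeq2 1.42.0, a fit with only the arms compared, and leaving out each library; removal of GC and length trends, the comparisons of time within drug arms and the single-time counts were added after the data were seen. Members and lists were chosen with earlier results of these data known. Members given in every library were CDKN1A, MDM2 and up to 12 called in a time-averaged comparison against DMSO, by smallest adjusted p; PMAIP1, TNFRSF10B, BBC3 and PIDD1 were chosen after their values were seen. Of each other list at most 4 called genes with the largest change were named. A further list is not reported here. Replicate numbers do not pair the libraries: same-numbered libraries at 1 time had a mean correlation of 0.00232 in their deviations over 189 pairs (3 over 0.1). No 2 replicates were duplicates. Symbols were taken from current names for 57754 genes and from GENCODE 29 for 462, and 120 had none.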

Additional observations from a re-analysis of the deposited data

Results flagged for a closer look

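For 23 members the difference of the drug arms from DMSO changed with time (edgeR quasi-likelihood test of 12 contrasts, adjusted p, with 22.8% of all tested genes passing). Among genes of arrest and feedback these were CDKN1A (4.11e-07), MDM2 (6.06e-06), GADD45A (0.000108), PLK3 (0.0023), PPM1D (0.00339) and CCNG1 (0.0206). Among genes of cell death they were PMAIP1 (1.86e-09), TP53I3 (7.87e-07), TNFRSF10B (3.42e-06), BBC3 (4.01e-05), AEN (0.000138), PIDD1 (0.000186), FAS (0.000531), BAX (0.00144), PHLDA3 (0.00202), EDA2R (0.0119) and TRIAP1 (0.028). DDB2 (3.52e-05), XPC (0.00119) and RRM2B (0.0258) were the repair genes. FDXR (0.000181), SPATA18 (0.029) and SESN1 (0.038) were the genes of metabolism and mitochondria.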

How the results depend on the processing

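With GC and length trends removed the called rise of PLK3 with the ibuprofen probe at 12 h against 6 h (0.57) became -0.05, adjusted p = 0.916, and TNFRSF10B with the ibufenac probe at 12 h against 6 h, not called at 0.00, was called lower at -0.17, adjusted p = 0.0324. No other called change of a member turned its sign with that correction, nor did any of the single-gene changes followed under the other alternatives, although changes that were not called could. The split of calls into higher and lower moved with the removal of GC and length trends as given above. Of the counts of called members 780 stayed within 1.5 times and 92 moved further. Of the single-gene changes 5863 kept their side of the threshold, 238 lost it and 91 gained it. The causes of these moves were not tested. Shares of all genes passing are not given with the counts below, so these counts do not compare the members with all genes. Without the filter on low counts the calls summed over the 3 times against DMSO were 23 for the ibuprofen probe (14 in the report), 15 for photocaged ibuprofen (6), 14 for photocaged ibufenac (9), 11 for the ibufenac bolus (4) and 5 for the ibuprofen bolus (0). Of the 15 for photocaged ibuprofen 4 were lower, of the 14 for photocaged ibufenac 5, of the 23 for the ibuprofen probe 9 and of the 11 for the ibufenac bolus 4. The ibufenac probe at 18 h then had 9 (3), and over the times the ibuprofen probe had 5 (3), the ibuprofen bolus 3 (0), the ibufenac bolus 2 (0), the ibufenac against the ibuprofen probe 5 (3) and the ibufenac against the ibuprofen bolus 2 (0). With DESeq2 the time-averaged counts were 7 for the ibuprofen probe (3), 6 for the ibufenac probe (3), 1 for the ibufenac bolus (0), 5 between the probes (3) and 1 between the boluses (0), and with RLE factors 5 for the ibuprofen probe (3). With GC and length trends removed the ibuprofen probe had 7 at 6 h (13) and 7 summed (14), and the ibufenac bolus 1 summed (4). The ibufenac probe then had 7 at 18 h (3), all lower. With only the arms compared in the fit, photocaged ibuprofen had 4 over the times (7), 2 summed (6) and 0 at 6 h (4), the ibuprofen probe 5 over the times (3), the ibufenac bolus 2 summed (4) and 16 at 12 h against 6 h (26), and the ibufenac probe 1 at 18 h (3). In that fit the ibufenac probe had 2 against photocaged ibufenac (4) and 2 against the ibufenac bolus (4), and photocaged ibuprofen 6 against the ibuprofen bolus (10). With the replicate block, although the numbers share no pairing, 5 members passed between the probes over the times (3) and 10 with the ibufenac probe at 12 h against 6 h (16), and the other counts moved by less than 1.5 times. Leaving out 1 library at a time, the time-averaged counts against DMSO ran from 4 to 8 for photocaged ibuprofen, 2 to 7 for photocaged ibufenac, 1 to 5 for the ibuprofen probe and 3 to 5 for the ibufenac probe. The summed counts ran from 1 to 6 for photocaged ibuprofen, 5 to 10 for photocaged ibufenac, 5 to 16 for the ibuprofen probe, 0 to 1 for the ibuprofen bolus and 0 to 5 for the ibufenac bolus. At 6 h they ran from 0 to 5 for photocaged ibuprofen, 3 to 7 for photocaged ibufenac and 3 to 14 for the ibuprofen probe, and at 18 h from 0 to 3 for the ibufenac probe. At 12 h against 6 h they ran from 10 to 15 for photocaged ibuprofen, 11 to 16 for photocaged ibufenac and 10 to 16 for the ibufenac probe. Between forms they ran from 1 to 4 for the ibuprofen probe against its bolus, 2 to 6 for photocaged ibufenac and for the ibufenac probe against their bolus, and 2 to 4 for the ibufenac probe against photocaged ibufenac. With 3 libraries a group and 12.1 to 38.4 M counts, the changes of PIDD1, BBC3 and FDXR at 18 h against 6 h in DMSO had the largest standard errors (0.40, 0.33 and 0.25).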
